A study of Mus musculus with 4 samples.

Results

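The genes described here encode the subunits of RNA polymerases I, II and III, the general transcription factors that load these enzymes onto promoters, and the TBP-associated factors (TAFs) that surround the TATA-binding protein TBP. Members were taken by gene symbol, with no measured value in the rule: every listed symbol that starts with Polr1, Polr2 or Polr3, Gtf2 or Gtf3, or Taf, in the pattern of the gene family, together with Tbp and its relative Tbpl1. The rule took 78 of the 16861 genes listed in the 4 libraries. By textbook roles, 10 belonged to polymerase I (Pol I) alone, 2 were shared by Pol I and Pol III, 6 served all 3 enzymes, 38 belonged to Pol II and 17 to Pol III, and 5 carried a matching symbol without being a fixed part of any of these machines.

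Fully grown germinal vesicle (GV) oocytes of 3-week-old female C57BL/6J mice were freed of cumulus cells by pipetting. The oocytes were sorted by Hoechst staining in medium containing milrinone, under brief ultraviolet light. The groups are named for a rim of chromatin at the nucleolus, absent in non-surrounded nucleolus (NSN) oocytes and present in surrounded nucleolus (SN) oocytes. Each group had 2 libraries, each made from 15 pooled oocytes by Smart-seq2, which primes poly(A)-tailed RNA with oligo(dT) and here used 18 cycles of PCR. No treatment besides this handling, and no genetic change, was named for either group. The labels do not say that the replicates came from separate animals. The p-values below therefore measure only the spread between these libraries, which may be technical.

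Values are FPKM, fragments normalised to gene length and to the total of the library, and therefore shares of a library rather than amounts per oocyte. The NSN libraries held 17408945 and 17911559 read pairs and the SN libraries 17069772 and 17998361. Members took 0.741% and 0.759% of the read pairs of the NSN libraries and 0.784% and 0.790% of those of the SN libraries. A fall in the total RNA of an oocyte would not appear on this scale.

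As background, Pol I transcribes the large ribosomal RNA precursor in the nucleolus, Pol II makes messenger RNA, and Pol III makes transfer RNA and 5S ribosomal RNA. TBP takes part in initiation by all of them, in the SL1 complex for Pol I, in TFIID for Pol II and in TFIIIB for Pol III. Transcription declines as mouse oocytes pass from the NSN to the SN configuration, and the oocyte then relies largely on transcripts made and stored earlier.

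The libraries matched their label as oocytes. Zp3, which encodes a protein of the egg coat, stood at 7281 and 7063 FPKM in the NSN libraries and at 5425 and 5208 FPKM in the SN libraries. Of the 12 granulosa and cumulus cell markers examined, Amh, Amhr2, Foxl2 and Fst were not listed, and the other 8 summed to 9.57 and 13.9 FPKM in the NSN libraries and 14.0 and 13.8 FPKM in the SN libraries, with Cyp19a1 the most abundant at 5.81 to 8.38 FPKM. The 10 oocyte markers were all lower in both SN libraries than in both NSN libraries (17.8% of all genes tested were), summing to 20939 and 19707 FPKM in NSN and 13881 and 12882 FPKM in SN, and 8 of them passed the limma test described next. The 100 genes with the most read pairs in each library took 39.9% and 38.8% of the NSN pairs and 35.5% and 35.4% of the SN pairs. The part of this shift in the differences between members was not tested.

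The comparison of SN with NSN oocytes asked which parts of the transcription machinery differed in mRNA level between the 2 chromatin configurations. Few were called: 5 of the 71 members with a mean FPKM of at least 0.5 (7.04%) passed the test, against 7.93% of all 11672 genes tested, so that the members were called about as often as the genome at large. A gene that was not called is not shown to be equal in the groups. To be called, a gene needed a limma adjusted p below 0.05 and a 1.2-fold difference or more. Folds were taken on log2(FPKM + 0.5), where the change of a weakly expressed gene comes out too small. All 5 were higher in SN, Polr2k, Gtf2f1, Polr3k, Taf1d and Gtf2h2, where 5.95% of all genes were called higher and 1.98% lower. With these settings limma called no member lower, but it called Gtf2a1l lower with the filter at 5 FPKM, as 327 of 5519 genes were. In the main comparison 4 members had an unadjusted p under 0.05 for a lower level in SN (5.63%, against 7.86% of all genes) and 23 for a higher one (32.4%, against 23.8%), and limma-voom on recovered read pairs called 1 member lower with total scaling (4.57% of all genes) and 5 with median scaling (8.24%). In both directions together, limma-voom called 16 members (22.5%) with total scaling, against 19.7% of all genes, and 10 (14.1%) with median scaling, against 14.6%. Beside the 5 calls of limma, total scaling called Gtf2a1, Gtf2e1, Polr2b, Polr2i, Taf1, Taf3, Taf4, Taf5, Taf10 and Taf13 higher and Gtf2a1l lower. Median scaling called Gtf2f1, Polr2k, Polr3k, Taf1d and Taf5 higher, and Gtf2a1l, Gtf2f2, Polr1f, Polr2c and Taf11 lower. Among all genes, 695 were called higher and 231 lower. After scaling the libraries to a common median, these became 78 and 180, and the median log2 difference of all genes moved from 0.14 to 0.01, so that the differences of the members called, and of a few others, are also given relative to that median of 0.14. Median scaling called 2 members, Gtf2f1 and Polr3k, against 2.21% of all genes, and quantile normalization called the same 2, against 1.97%. Limma called 0 members without NSN replicate 1, 0 without SN replicate 1 and 0 without SN replicate 2, with 13, 20 and 21 at an unadjusted p under 0.05, while 11 were called without NSN replicate 2, 9 higher, with 4 of the 5 among them, and 2 lower, Gtf2a1l and Taf11. It called 0, 148, 11 and 1685 of all genes in these 4 cases, the last 1368 higher and 317 lower, with the single library left in a group assumed to vary like the other group.

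Across the members, the median log2 difference was 0.10, next to 0.14 for all genes, and 32 of the 71 lay above the median of all genes. Both SN libraries exceeded both NSN libraries for 34 members (47.9%), against 44.8% of all genes tested, and lay below them for 10 (14.1%), against 17.8%. By class, the median was 0.13 for Pol I, 0.13 for Pol II and -0.03 for Pol III, with 0.26 for the 6 members common to all 3 enzymes and -0.10 for the 2 shared by Pol I and Pol III. The median of all genes was exceeded by 4 of 9 Pol I, 18 of 36 Pol II and 2 of 14 Pol III members. Both SN libraries lay above both NSN libraries for 5 (55.6%), 21 (58.3%) and 2 (14.3%) of them. Differences between the classes were not tested. The Pol I and Pol II medians changed sign under median scaling, to -0.02 for each, whereas the Pol III median was -0.16 there. With the filter raised to 5 FPKM the Pol III median was 0.08, and without NSN replicate 2 it was 0.00275.

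**Figure D1:**
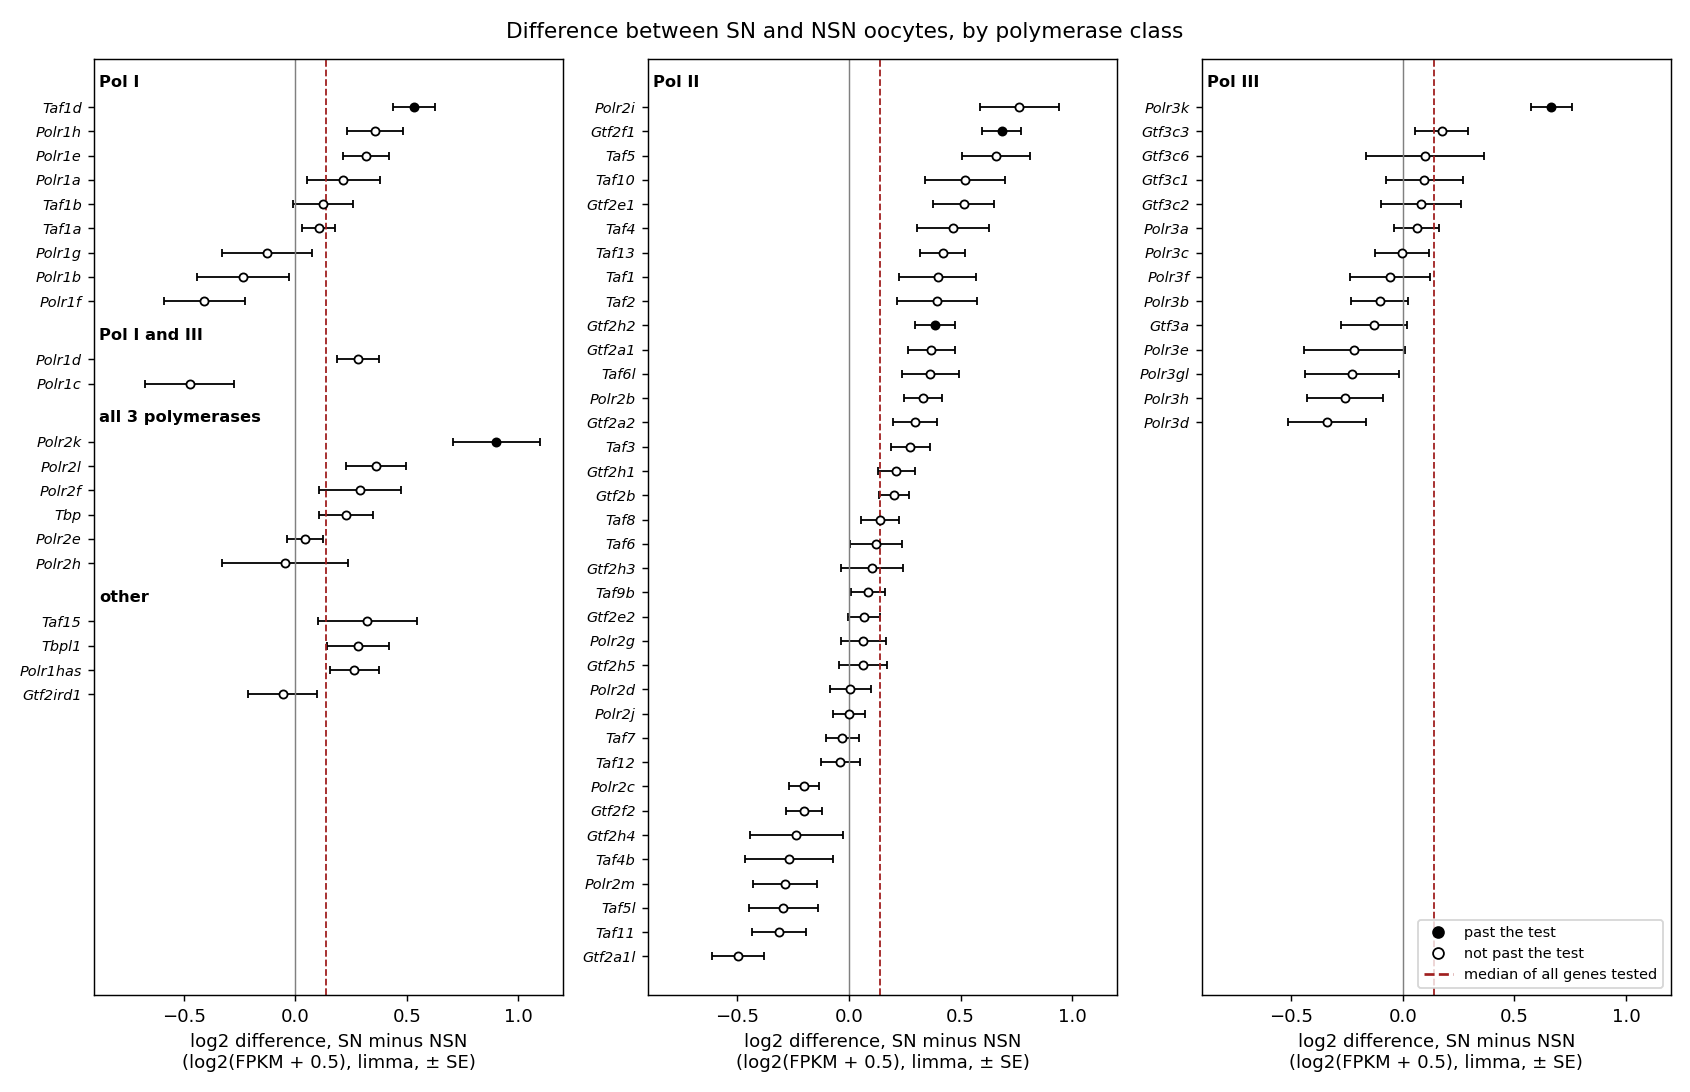
Log2 difference between SN and NSN oocytes for the 71 members tested, in 3 panels by polymerase class, with limma standard errors as bars and 2 libraries per group. Filled points mark the 5 members past the test, Polr2k, Gtf2f1, Polr3k, Taf1d and Gtf2h2, the dashed line is the median of all genes tested at 0.14, and 8 of the 9 Pol III core subunits tested lie to the left of it.

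Levels varied far more between members than between configurations. The mean over the 4 libraries ran from 0.0705 FPKM for Gtf2i to 549 FPKM for Polr2d, with a median of 6.86 FPKM, and 11 members were under 1 FPKM while 9 were at 100 FPKM or more. Subunits of the same complex were not equal in mRNA. Within the Pol II core the highest mean exceeded the lowest by 1707-fold, within SL1 by 1288-fold and within the Pol III core by 98.5-fold. The lowest in the Pol III core was Polr3g, an alternative form of a subunit. The lowest in SL1, Taf1c, had a mean of 0.297 FPKM in NSN and 0.0968 FPKM in SN. For Polr2a, the lowest in the Pol II core, these means were 0.265 and 0.379 FPKM. The range was therefore wider in the Pol II core within NSN but in SL1 within SN.

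**Figure D2:**
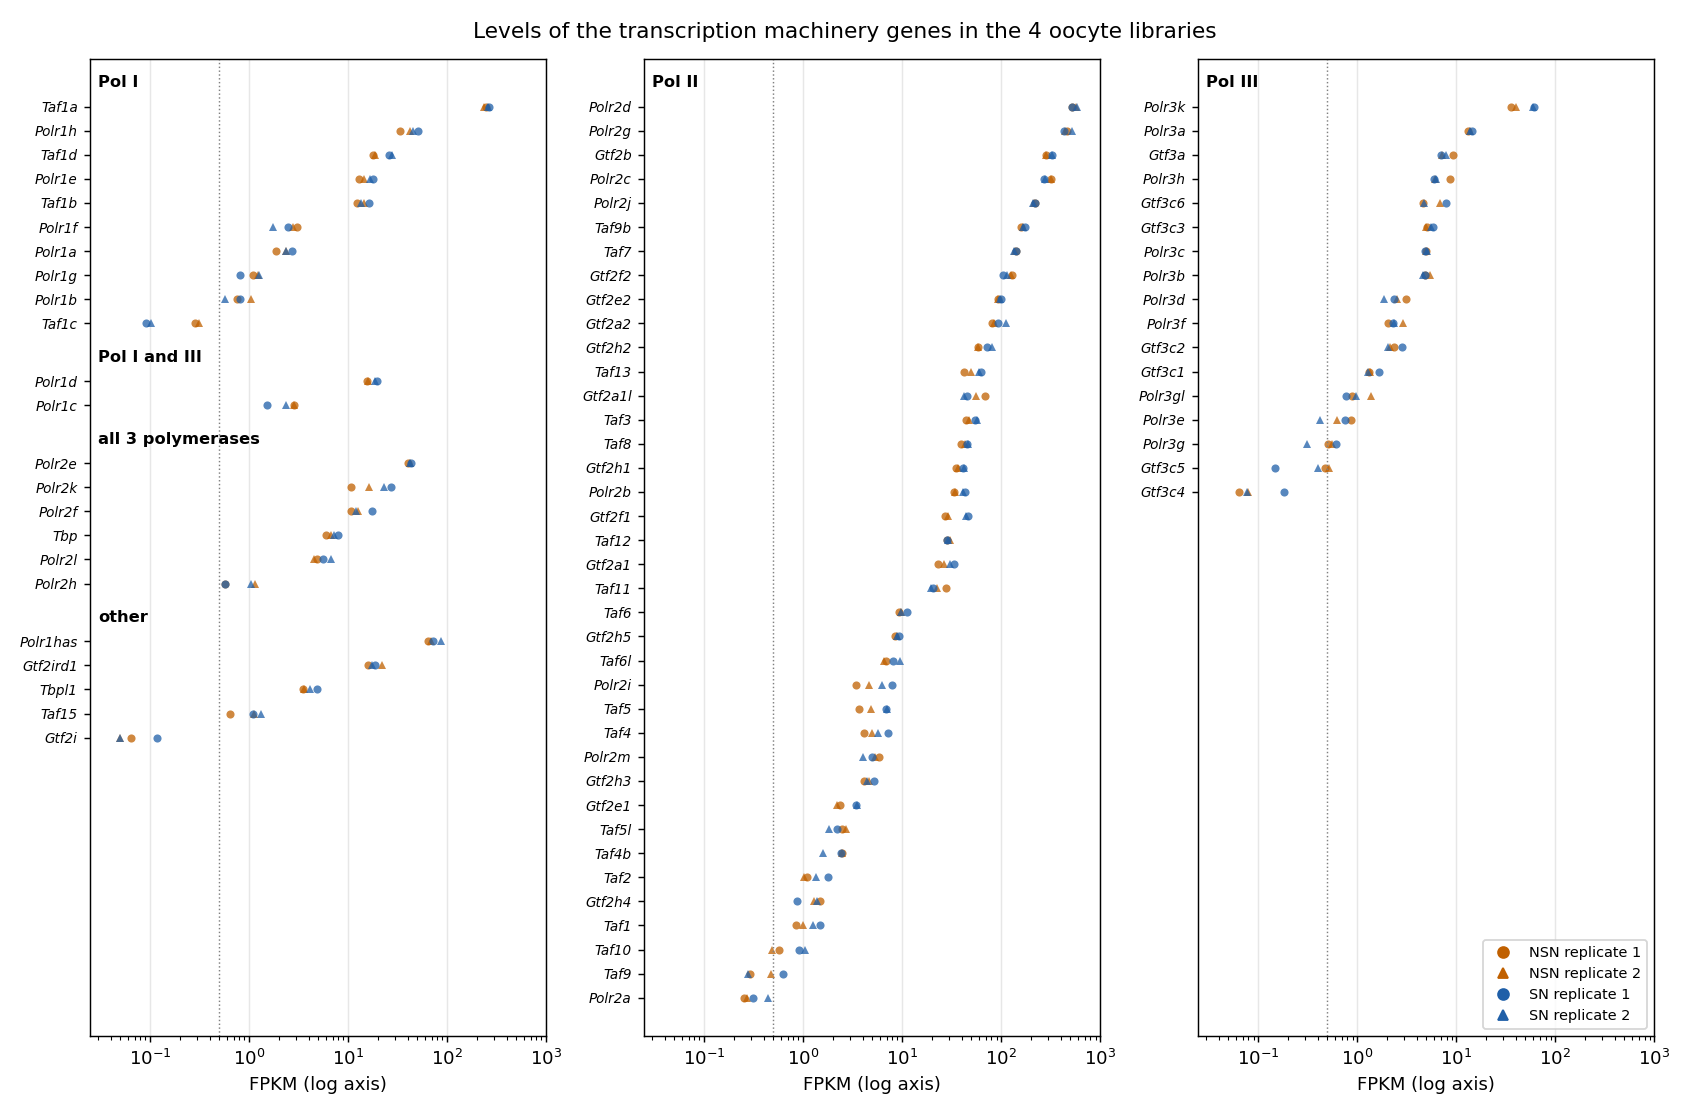
FPKM on a log axis for all 78 members in each of the 4 libraries, in 3 panels by polymerase class and sorted by mean level, with NSN libraries in orange, SN libraries in blue, and circles and triangles for replicates 1 and 2. The dotted line is the filter of 0.5 FPKM, and the points of a gene lie close together compared with the distance from Gtf2i at 0.0705 FPKM to Polr2d at 549 FPKM.

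Pol I was represented by 6 subunits of its own and the 4 TAFs of SL1, the factor that recruits it to ribosomal DNA. Its largest subunit Polr1a (chr6:71886021-71961919) was at 1.88 and 2.36 FPKM in NSN and 2.71 and 2.36 FPKM in SN, and its second largest, Polr1b (chr2:128942903-128970214), at 0.756 and 1.05 FPKM in NSN and 0.809 and 0.576 FPKM in SN. The 2 subunits that form the active centre thus stood at a few FPKM or less in every library, and neither passed the test (limma adjusted p = 0.40 and 0.465). The small subunit Polr1h, by contrast, was at 33.8 and 42.0 FPKM in NSN and 51.3 and 45.7 FPKM in SN. Polr1f (chr12:33479614-33491995) was at 3.03 and 2.80 FPKM in NSN and lower in SN, at 2.47 and 1.73 FPKM, with a log2 difference of -0.41 ± 0.18 (SE) that did not pass (limma adjusted p = 0.177; 0.0368, with limma-voom and median scaling, to 0.58 over the alternatives). Without SN replicate 2 the difference was -0.20, and without SN replicate 1 it was -0.61.

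By the mean over the 4 libraries, the SL1 subunits spanned the widest range outside the Pol II core. In SN alone their range was wider than that of the Pol II core. Taf1a was at 239 to 269 FPKM in every library, while Taf1c (chr8:120324585-120331986) was at 0.284 and 0.311 FPKM in NSN and 0.0905 and 0.103 FPKM in SN, that is 16 and 18 read pairs against 5 and 6. Both SN libraries were thus lower for Taf1c, but it was under the filter and was not tested. Taf1d (chr9:15217502-15228293) rose, from 18.0 and 18.6 FPKM in NSN to 25.8 and 27.5 FPKM in SN. The groups did not overlap, and the log2 difference was 0.53 ± 0.09 (SE, limma adjusted p = 0.0375; 0.00867 to 0.115 over the alternatives), or 0.39 above the median of all genes. Of the exonic bases of Taf1d, 13.6% also lie in exons of other genes, where unstranded counting cannot tell the genes apart. This share was above 10% for 30 of the 78 members, and it was 12.9% for Gtf2f1, 15.6% for Polr2b, 16.3% for Taf11, 28.1% for Gtf2f2, 30.7% for Polr3gl and 40.5% for Polr2j, all described below.

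Polr1c and Polr1d form the dimer that starts the assembly of Pol I and Pol III, and the difference between the groups had opposite signs for the 2 genes. Polr1c (chr17:46554843-46559126) was at 2.85 FPKM in each NSN library and at 1.52 and 2.39 FPKM in SN, with 67 and 69 read pairs against 35 and 58. Polr1d was at 15.5 and 16.1 FPKM in NSN and 19.8 and 18.8 FPKM in SN. Neither passed the test alone (limma adjusted p = 0.161 and 0.103), and without SN replicate 1 the log2 difference of Polr1c was -0.22 in place of -0.47, and without SN replicate 2 it was -0.73. The ratio of Polr1c to Polr1d within a library, which does not depend on how libraries are scaled, was -2.44 and -2.50 on the log2 scale in NSN and -3.71 and -2.98 in SN, with the SN libraries on the lower side of each NSN library.

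Of the 5 small subunits common to all 3 polymerases, Polr2e was steady at 40.7 to 43.3 FPKM, and Polr2h was lowest at 0.568 to 1.16 FPKM. Polr2k (chr15:36174156-36177157), a short zinc-binding subunit, was at 10.7 and 16.3 FPKM in NSN and at 27.3 and 23.1 FPKM in SN, and both SN libraries were above both NSN libraries. The log2 difference was 0.90 ± 0.20 (SE, limma adjusted p = 0.0457; 0.00638 to 0.117 over the alternatives), 0.76 above the median of all genes. With all libraries this was the largest of the 5 differences called, but without NSN replicate 1 it was 0.61, under the 0.64 of Gtf2f1. A stretch making up 12.3% of its transcript has a copy of at least 98% identity elsewhere in the genome, so that part of its read pairs may be uncertain.

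The core of Pol II was the most uneven of the 3 enzymes. Polr2a (chr11:69624820-69649468), the largest subunit, which carries the catalytic site, was listed at only 0.256 and 0.273 FPKM in NSN and 0.313 and 0.445 FPKM in SN, from 30, 33, 36 and 54 read pairs, and was under the filter. Its partner in the active centre, Polr2b (chr5:77457994-77499051), was at 33.4 and 33.9 FPKM in NSN and 43.6 and 41.4 FPKM in SN, higher in both SN libraries but just short of the test (log2 difference 0.33 ± 0.08 SE, limma adjusted p = 0.0591). After median scaling the Polr2b difference was 0.18 (limma adjusted p = 0.216, limma-voom adjusted p = 0.183). Polr2b passed with limma at a filter of 5 FPKM (adjusted p = 0.0289) and with limma-voom and total scaling (adjusted p = 0.018). At the other end, Polr2d (chr18:31922159-31929762) and Polr2g (chr19:8770489-8775949), which together form the stalk of the enzyme, had the 2 highest levels of all members. Polr2d was at 521 and 575 FPKM in NSN and 516 and 586 FPKM in SN, and Polr2g at 462 and 442 FPKM in NSN and 431 and 518 FPKM in SN. The groups overlapped for both, with log2 differences of 0.01 ± 0.09 and 0.06 ± 0.10 (SE, limma adjusted p = 0.972 and 0.685).

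Polr2j was nearly constant at 212 to 222 FPKM. Polr2c was at 316 and 318 FPKM in NSN and 273 and 278 FPKM in SN, without passing the test (limma adjusted p = 0.104), and 57.7% of its exonic bases lie in exons of other genes, mainly Dok4. Polr2i (chr7:29931325-29932816), a subunit that helps the enzyme back up and cleave its transcript, was at 3.43 and 4.62 FPKM in NSN and 7.98 and 6.35 FPKM in SN. Its groups did not overlap and its difference of 0.76 ± 0.18 (SE) stayed just above the threshold (limma adjusted p = 0.0515; 0.0179 to 0.157 over the alternatives), 0.63 above the median of all genes. Of its exonic bases, 29.5% lie in exons of other genes.

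Among the general factors of Pol II, TFIIB, which bridges TBP and the polymerase, is a single protein. Its gene Gtf2b (chr3:142470806-142489368) had the third highest level of all members, at 284 and 285 FPKM in NSN and 331 and 324 FPKM in SN (log2 difference 0.20 ± 0.07 SE, limma adjusted p = 0.103). TFIIF, which escorts Pol II to the promoter, consists of the products of Gtf2f1 and Gtf2f2. Gtf2f1 (chr17:57310399-57318955) rose from 27.3 and 28.9 FPKM in NSN to 46.5 and 44.4 FPKM in SN. The groups stood well apart, with a log2 difference of 0.69 ± 0.09 (SE, limma adjusted p = 0.0364; 0.00128 to 0.0921 over the alternatives), 0.55 above the median of all genes. Gtf2f2 was at 128 and 126 FPKM in NSN and 106 and 115 FPKM in SN, without passing the test (limma adjusted p = 0.142). In a comparison chosen after the values were seen, Gtf2f1 was 0.221 times the level of Gtf2f2 in NSN and 0.411 times in SN.

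TFIIE showed a larger imbalance, chosen likewise after the values were seen: Gtf2e1 was at 2.35 and 2.21 FPKM in NSN and 3.42 and 3.51 FPKM in SN, next to 93.7 to 98.8 FPKM for Gtf2e2, its partner in the complex. For TFIIH, which opens the promoter and phosphorylates the tail of Pol II, 5 members matched the rule. Gtf2h2 (chr13:100596290-100629168), a core subunit that also takes part in nucleotide excision repair, rose from 58.5 and 58.1 FPKM in NSN to 71.9 and 81.2 FPKM in SN. Its log2 difference of 0.39 ± 0.09 (SE) was the smallest of those called and sat at the threshold (limma adjusted p = 0.0499; 0.0144 to 0.174 over the alternatives), 0.25 above the median of all genes. The other 4 TFIIH members were not called, with mean levels from 1.25 FPKM for Gtf2h4 to 38.9 FPKM for Gtf2h1.

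TFIIA, which steadies TBP on DNA, has a germ cell form of its large subunit. That form, Gtf2a1l (chr17:88976072-89022585), was at 68.4 and 55.6 FPKM in NSN and 45.2 and 42.0 FPKM in SN, and its groups did not overlap. The log2 difference of -0.50 ± 0.12 (SE) was just short of the test (limma adjusted p = 0.0520), and limma-voom on recovered read pairs placed it past the threshold under both scalings (adjusted p = 0.00891 and 0.00628; 0.00628 to 0.158 over all alternatives). Relative to the median of all genes it was -0.63, and 26.0% of the exonic bases of Gtf2a1l lie in exons of another gene, so that its level and its ratio to Gtf2a1 are uncertain. Gtf2a1, the form found in most tissues, was at 23.0 and 26.3 FPKM in NSN and 33.4 and 30.6 FPKM in SN (limma adjusted p = 0.0747). Gtf2a1l remained the more abundant of the pair in every library. On the log2 scale the ratio of Gtf2a1 to Gtf2a1l was -1.57 and -1.08 in NSN and -0.44 and -0.46 in SN, a difference of 0.88, and Gtf2a1 thus reached 0.733 times the level of Gtf2a1l in SN from 0.398 times in NSN.

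TFIID, the complex of TBP and its TAFs that recognises Pol II promoters, was represented by 15 TAF genes, of which 14 were tested. Limma called 0, with 6 at an unadjusted p under 0.05 (42.9%, against 31.7% of all genes), 5 higher and 1 lower. Limma-voom called 6 higher (42.9%, against 15.1% of all genes) with total scaling, and 1 higher and 1 lower (7.14% each, against 6.36% and 8.24%) with median scaling. The median log2 difference was 0.21, or 0.05 after median scaling. Of the 14, 9 were higher in both SN libraries (64.3%, against 44.8% of all genes) and 2 were lower (14.3%, against 17.8%). Taf5 (chr19:47056161-47074734), the scaffold of the TFIID lobes, was at 3.65 and 4.83 FPKM in NSN and 6.85 and 7.00 FPKM in SN (log2 difference 0.66 ± 0.15 SE, limma adjusted p = 0.0511). Limma-voom placed it past the threshold under both scalings (adjusted p = 0.00662 and 0.0242; 0.00662 to 0.152 over all alternatives), as did limma with a pseudocount of 1, and it lay 0.52 above the median of all genes. Taf11 (chr17:28120093-28128828), a histone-fold TAF, was at 27.8 and 22.6 FPKM in NSN and 20.5 and 19.6 FPKM in SN (log2 difference -0.31 ± 0.12 SE, limma adjusted p = 0.134; 0.0282 to 0.489 over the alternatives; -0.17 without NSN replicate 1), while its histone-fold partner Taf13 was at 42.4 and 49.6 FPKM in NSN and 62.5 and 60.5 FPKM in SN (limma adjusted p = 0.0530). Of the Taf13 transcript, 52.8% has a near-identical copy elsewhere in the genome, so that its values are uncertain.

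Several TAFs come as related forms, and in these oocytes the forms were far from equal. Taf9b was at 157 to 175 FPKM, whereas Taf9 was at 0.280 to 0.621 FPKM from 10 to 21 read pairs, and 52.2% of the exonic bases of Taf9 lie in exons of other genes. Of the Taf9 transcript, 48.1% has a near-identical copy elsewhere in the genome, so that its level and its ratio to Taf9b are uncertain. Taf4b (chr18:14916228-15035158), the gonad form of the TFIID scaffold TAF4, was at 2.47 and 2.49 FPKM in NSN and 2.45 and 1.58 FPKM in SN (log2 difference -0.27 ± 0.20 SE, limma adjusted p = 0.386). Without SN replicate 2 the difference was -0.016, and without SN replicate 1 it was -0.52. Taf4 was at 4.10 and 4.98 FPKM in NSN and 7.23 and 5.72 FPKM in SN, above Taf4b in every library. The log2 ratio of Taf4 to Taf4b was 0.73 and 1.0 in NSN and 1.56 and 1.86 in SN. Taf7l, a germ cell and fat cell form of Taf7, was not listed, while Taf7 was at 135 to 142 FPKM.

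Taf5l and Taf6l are the forms of Taf5 and Taf6 that belong to the SAGA coactivator. The log2 ratio of Taf5 to Taf5l was 0.56 and 0.82 in NSN and 1.63 and 1.92 in SN, a shift of 1.08. Of the Taf5l transcript 25.8% has a near-identical copy elsewhere in the genome, and 30.3% of the exonic bases of Taf5 lie in exons of other genes, so that this ratio is uncertain. That of Taf6 to Taf6l, with 36.9% and 28.1% of their exonic bases in exons of other genes, overlapped between the groups, at 0.41 and 0.59 in NSN and 0.45 and 0.02 in SN. Of the 9 ratios, those of Taf4 to Taf4b, Taf5 to Taf5l, Gtf2a1 to Gtf2a1l and Polr1c to Polr1d kept the groups apart, by 0.85, 1.08, 0.88 and -0.87 between the means. The last was -0.51 without SN replicate 1. That of Tbp to Tbpl2 did so barely, at -1.17 and -0.63 in NSN and -0.62 and -0.52 in SN, and its shift of 0.33 was 0.055 without NSN replicate 1. No test of 2 against 2 libraries can give an exact two-sided permutation p under 0.33, and these ratios stand as descriptions. How often the ratio of any 2 genes keeps the groups apart was not computed. Among all single genes tested, both SN libraries lay above both NSN libraries for 44.8% and below them for 17.8%. The number of ratios apart therefore shows nothing particular to these pairs.

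**Figure D3:**
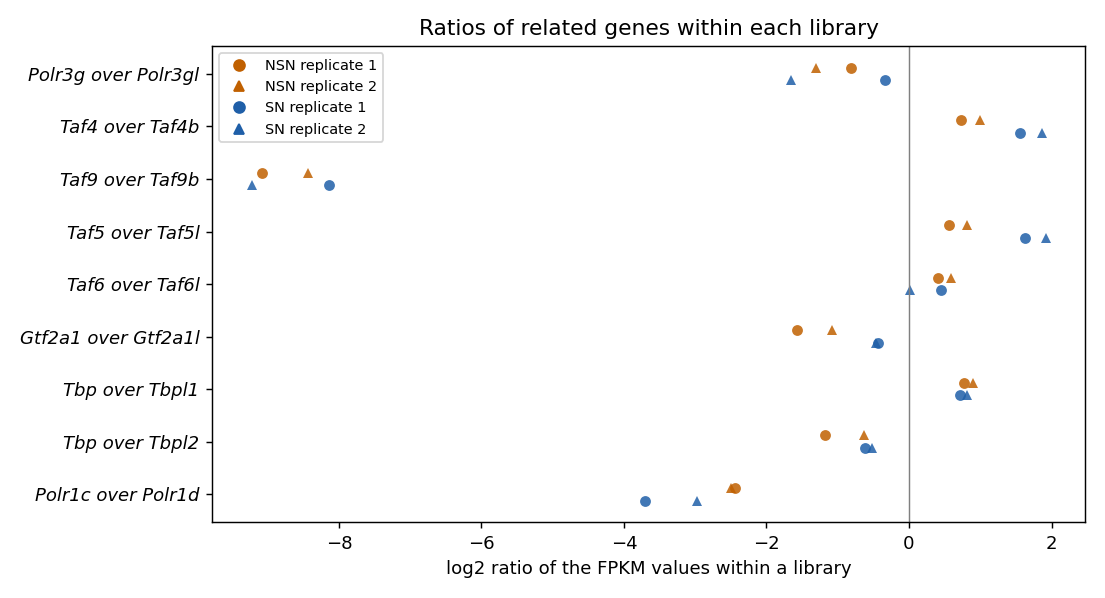
Log2 ratio of the FPKM of related genes within each library, with 1 row per pair, NSN libraries in orange, SN libraries in blue, and circles and triangles for replicates 1 and 2. The ratio of Taf5 to Taf5l is at 0.56 and 0.82 in NSN and 1.63 and 1.92 in SN, while that of Taf9 to Taf9b is below -8 in all 4 libraries.

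TBP itself and its relatives did not pass the test. Tbp (chr17:15720150-15748641) was at 6.06 and 6.68 FPKM in NSN and 7.87 and 7.21 FPKM in SN, with a log2 difference of 0.23 ± 0.12 (SE, limma adjusted p = 0.243), and 42.7% of its exonic bases lie in exons of other genes. The shortest length that gives whole read pairs for Tbp is 13091 bases, which bears on its level beside other genes but not on the comparison of the groups. Tbpl2 (chr2:23961733-23986607), the oocyte relative that takes over from TBP during oocyte growth, lies outside the symbol rule. Its FPKM was above that of Tbp in every library, at 13.7 and 10.3 in NSN and 12.1 and 10.4 in SN. In read pairs the order was reversed. Tbpl2 had 328 and 255 in NSN and 285 and 257 in SN, and Tbp had 1380 and 1567 in NSN and 1759 and 1698 in SN. Which of the 2 was more abundant therefore depends on the lengths used, 1379 bases for Tbpl2 and 13091 for Tbp. The groups overlapped for Tbpl2 (log2 difference -0.08 ± 0.16 SE, limma adjusted p = 0.752). Tbpl1 (chr10:22575092-22607892), best known from male germ cells, was at 3.55 and 3.58 FPKM in NSN and 4.82 and 4.09 FPKM in SN (log2 difference 0.28 ± 0.14 SE, limma adjusted p = 0.210). Without SN replicate 1 the difference was 0.18, and 31.3% of the exonic bases of Tbpl1 lie in exons of other genes. The log2 ratio of Tbp to Tbpl1 was between 0.71 and 0.90 in all 4 libraries.

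The Pol III genes were low as a class, with a median over the 17 members of 2.47 FPKM, next to 28.6 FPKM for the 38 Pol II members and 8.36 FPKM for the 10 Pol I members. The largest subunit Polr3a (chr14:24498761-24537138) was at 13.1 and 13.9 FPKM in NSN and 14.5 and 13.8 FPKM in SN, and the second largest, Polr3b (chr10:84458138-84563042), at 4.80 and 5.50 FPKM in NSN and 4.84 and 4.66 FPKM in SN. Both overlapped between the groups (limma adjusted p = 0.702 and 0.611). Polr3k (chr2:181506118-181537877), the small subunit that acts in transcript cleavage and termination, stood out in level and in change. It rose from 35.6 and 39.9 FPKM in NSN to 60.5 and 59.6 FPKM in SN. The 2 groups were widely separated, with a log2 difference of 0.67 ± 0.09 (SE, limma adjusted p = 0.0364; 0.000886 to 0.0921 over the alternatives), 0.53 above the median of all genes.

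Polr3k was the only one of the 9 Pol III core subunits tested that limma called (11.1%, against 7.93% of all genes). The other 8 each had a log2 difference below the median of all genes, and the median of the 9 was -0.10, or -0.24 after median scaling. The lowest was that of Polr3d (chr14:70674292-70680911), at 3.13 and 2.50 FPKM in NSN and 2.36 and 1.88 FPKM in SN (log2 difference -0.34 ± 0.17 SE, limma adjusted p = 0.228), and it was -0.20 without NSN replicate 1 and -0.21 without SN replicate 2. Polr3g (chr13:81820942-81860118) and Polr3gl encode related forms of another subunit, that of Polr3g being known from stem cells and early embryos. Polr3g was at 0.504 and 0.555 FPKM in NSN and 0.617 and 0.309 FPKM in SN, and was under the filter. Its counterpart Polr3gl (chr3:96485188-96505679) was at 0.886 and 1.37 FPKM in NSN and 0.780 and 0.973 FPKM in SN (limma adjusted p = 0.486). Polr3gl exceeded Polr3g in every library, and their ratio overlapped between the groups.

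TFIIIA, the zinc finger protein that binds the 5S ribosomal RNA gene, is encoded by Gtf3a (chr5:146885451-146892424), which was at 9.34 and 7.27 FPKM in NSN and 7.08 and 7.95 FPKM in SN. The groups overlapped (log2 difference -0.13 ± 0.15 SE, limma adjusted p = 0.584), and 58.7% of the exonic bases of Gtf3a lie in exons of other genes. The 6 genes of TFIIIC, which binds inside transfer RNA genes, had mean levels from 0.10 FPKM for Gtf3c4 (chr2:28712308-28730686) to 6.07 FPKM for Gtf3c6. Gtf3c4 was covered by 8 and 10 read pairs in NSN and 22 and 10 in SN, too few to show a difference at this depth. None of the 4 TFIIIC genes tested was called by limma (7.93% of all genes) or limma-voom (19.7% and 14.6%), and 0 had an unadjusted p under 0.05 (31.7%), from which nothing particular to so few genes can be read.

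Of the 5 members outside the machines, Gtf2i (chr5:134266683-134343812), a signal-responsive DNA-binding factor, was the lowest of all members, with 5 and 4 read pairs in NSN and 9 and 4 in SN. Its neighbour and relative Gtf2ird1 (chr5:134386505-134485843) was at 16.0 and 22.1 FPKM in NSN and 18.7 and 17.5 FPKM in SN. The RNA-binding protein gene Taf15 was at 0.639 to 1.32 FPKM. Polr1has starts next to Polr1h in the opposite direction and was the most abundant of the 5, at 64.3 and 69.0 FPKM in NSN and 72.9 and 88.0 FPKM in SN.

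Polr1h and Polr1has are separated by 32 bases at chr17:37269452-37269483 of GRCm39, so that 1 short stretch lies between the starts of the 2 genes. Both were higher in both SN libraries without passing the test (limma adjusted p = 0.111 and 0.153). The stretch is shown because it is upstream of both members, and is given on the plus strand with its 4 CpG dinucleotides in capitals.
Polr1h to Polr1has: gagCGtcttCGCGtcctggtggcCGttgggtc

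The promoters of the members were rich in CpG and in some common promoter words. In windows from 250 bases before to 50 bases after the start of the main transcript, CCGGAA, the core bound by ETS factors, was found on either strand in 42.3% of the 78 members and in 20.6% of 16483 listed genes, and the GC box GGGCGG in 67.9% and 46.9%. CCAAT was found on either strand in 35.9% of the members and 39.3% of the listed genes. TATAAA, starting 40 to 20 bases before the start on the sense strand, was found in 2 members, Polr2a and Taf13, or 2.56%, and in 1.17% of the listed genes. The median ratio of observed to expected CpG was 0.804 in the members and 0.621 in the listed genes. These matches describe the letters of the windows and were not tested. The 60 bases before the outermost annotated start are shown for 4 of the 5 members called and for Gtf2a1l, the germ cell form of TFIIA, which was lower in SN without passing the limma test. Those of Taf1d lie partly in an exon of another gene and are not shown. Capitals mark these words on either strand, and the stretches of Gtf2f1 and Gtf2h2 hold none of them.
Polr2k, chr15:36174096-36174155, plus strand: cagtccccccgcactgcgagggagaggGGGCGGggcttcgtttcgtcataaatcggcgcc
Gtf2f1, chr17:57318956-57319015, minus strand: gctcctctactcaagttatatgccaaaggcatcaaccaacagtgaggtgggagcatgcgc
Gtf2h2, chr13:100629169-100629228, minus strand: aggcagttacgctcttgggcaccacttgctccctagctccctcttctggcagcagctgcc
Polr3k, chr2:181506058-181506117, plus strand: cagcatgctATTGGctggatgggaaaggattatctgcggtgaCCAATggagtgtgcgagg
Gtf2a1l, chr17:88976012-88976071, plus strand: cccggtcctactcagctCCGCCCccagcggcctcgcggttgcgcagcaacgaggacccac

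Of 31 other genes of these pathways that the symbol rule does not take, 28 were tested, and limma called 0 higher and 1 lower (3.57%, against 7.93% of all genes). At an unadjusted p under 0.05, 4 were higher (14.3%, against 23.8% of all genes) and 3 lower (10.7%, against 7.86%). Limma-voom called 3 higher (10.7%, against 15.1%) and 2 lower (7.14%, against 4.57%) with total scaling, and 0 higher (against 6.36%) and 3 lower (10.7%, against 8.24%) with median scaling. Their median log2 difference was 0.01, and -0.12 after median scaling. The gene called was Tfam, which packages mitochondrial DNA and starts its transcription, at 8.81 and 7.43 FPKM in NSN and 5.38 and 4.61 FPKM in SN (log2 difference -0.65 ± 0.14 SE, limma adjusted p = 0.0457; 0.0035 to 0.151 over the alternatives). Maf1, the repressor of Pol III, missed the threshold of limma, at 3.87 and 4.75 FPKM in NSN and 2.61 and 1.59 FPKM in SN (log2 difference -0.91 ± 0.22 SE, limma adjusted p = 0.0533), and passed it with limma-voom under both scalings (adjusted p = 0.0107 and 0.00883; 0.00883 to 0.154 over all alternatives). Relative to the median of all genes the differences of Tfam and Maf1 were -0.79 and -1.05, and 33.0% of the exonic bases of Maf1 lie in exons of other genes, mainly Sharpin. Rrn3, which makes Pol I competent to start, was at 105 and 77.6 FPKM in NSN and 68.0 and 90.0 FPKM in SN. Ubtf, which organises ribosomal DNA for Pol I, was at 1.14 and 0.620 FPKM in NSN and 0.582 and 0.285 FPKM in SN (limma adjusted p = 0.201). All 4 TFIIH partners tested, Ercc3, Cdk7, Ccnh and Mnat1, were higher in both SN libraries, as were 44.8% of all genes, and 0 passed the limma or limma-voom test, with 1 at an unadjusted p under 0.05 in limma; after median scaling the log2 difference of Ercc3 was -0.12.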

How the data were processed

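The deposited values are FPKM per gene, computed by the authors from read pairs counted on exons without strand. The submitters' processing notes name Trim Galore 0.6.10, HISAT2, featureCounts, DESeq2 and the GRCm39 build. Members and gene lists were chosen with earlier results of these data known. Genes averaging 0.5 FPKM or more over the 4 libraries (11672) were fitted, as log2(FPKM + 0.5), with limma 3.58.1 (R 4.3.3; variance trend; Benjamini-Hochberg adjustment), SN against NSN, 2 libraries each, without covariates; the fit was tested on simulated data. Read pairs were recovered from FPKM, which are whole multiples of a value set by gene length and library total, for 99.9% of genes and all 78 members, within a relative tolerance of 1e-12. The shortest length that gives whole pairs in all 4 libraries was taken, so the pairs are the fewest that the values allow. They were used for depth, for shares of a library and for limma-voom, whose errors, like those of limma, rest on the spread between the libraries. In these read pairs PCR copies cannot be told from separate molecules. Genes named are all members called; Polr1a, Polr1b, Polr2a, Polr2b, Polr3a, Polr3b, Tbp, Tbpl1, Tbpl2, Taf4b, Taf7l, Gtf2a1l, Gtf3a, Polr3g and Polr3gl; the 3 highest and 3 lowest in level; the 5 highest and 5 lowest log2 differences; and partners or extremes of a complex, chosen after their values were seen. Coordinates, promoters and the shares of exonic bases in other genes come from a later GENCODE release on GRCm39 than the one used for counting. These overlaps may therefore differ from those present when the read pairs were counted. Copies were sought with blastn 2.17.0 at 98% identity over at least 100 bases. Alternatives were other pseudocounts, filters, scalings, thresholds and fits, and leaving out each library.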

Additional observations from a re-analysis of the deposited data

How the results depend on the processing

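The 5 calls, all higher in SN, came to 4 with a pseudocount of 0.1 (5.63% of members, against 6.62% of all genes) and 6 with 1 (8.45%, against 8.10%). Without a filter on low values and without a variance trend 0 members and 0 of all genes were called, with 28 and 20 members at an unadjusted p under 0.05. Raising the filter to 5 FPKM, and so testing fewer genes, gave 11 calls among the 47 members tested, 10 higher and 1 lower (23.4%, against 27.1% of 5519 genes). Median scaling gave 2 (2 higher), quantile normalization 2 (2 higher), limma-voom with total scaling 16 (15 higher, 1 lower) and limma-voom with median scaling 10 (5 higher, 5 lower). An adjusted p under 0.1 gave 14 (13 higher, 1 lower; 19.7%, against 20.3% of all genes) and a fold change of at least 1.5 gave 3 (3 higher; 4.23%, against 4.63%). The labels do not say whether replicates of the same number share a batch, and this was not tested. The replicate differences of NSN and SN correlated at -0.07 across genes, which cannot settle it. Limma with a replicate block called 2 members, 2 of them higher (2.82%), and 422 of all genes (3.62%). Leaving out a library in turn gave 0 to 11 calls, 0 to 9 higher and 0 to 2 lower.

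The median log2 difference of the members was 0.18 with the filter at 5 FPKM, -0.035 with median scaling, 0.0057 with quantile normalization and -0.042 with limma-voom and median scaling. For Pol I these were 0.32, -0.023, 0.084 and -0.027, for Pol II 0.13, -0.020, 0.078 and -0.022, and for Pol III 0.081, -0.16, -0.18 and -0.19. With a library left out the medians ranged from 0.073 to 0.18 for all members, 0.082 to 0.26 for Pol I, 0.091 to 0.19 for Pol II and -0.081 to 0.00275 for Pol III.

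Of 251 values of the 26 named genes tested, under alternatives with all libraries, 210 left the direction and the call as they were, 21 lost a call, 13 gained one and 7 changed sign. The sign changed for Polr3a with median scaling (-0.087), quantile normalization (-0.13) and limma-voom with median scaling (-0.090), for Polr2g with median scaling (-0.090) and limma-voom with median scaling (-0.089), and for Polr2d likewise (-0.15 and -0.15). With a library left out, Tbpl2 ranged from -0.28 to 0.11, Gtf3a from -0.30 to 0.042, Polr2g from -0.066 to 0.20 and Polr2d from -0.086 to 0.098; without a change of sign, Polr1a ranged from 0.082 to 0.35, Polr1b from -0.38 to -0.082, Polr3a from 0.022 to 0.10, Polr3b from -0.19 to -0.015 and Polr3gl from -0.44 to -0.013. The cause of these changes was not tested. 13 members, Polr2a, Polr2h, Polr3g and Taf1c among them, had fewer than 60 read pairs in every library, and depth limited their comparison.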
